A study of Mus musculus with 458 samples.

Results

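Vwf encodes von Willebrand factor, and its expression marked the single cells that had been transplanted to found the clones studied here. It is described as 1 gene of the 22645 in the expression table, over all the donor-derived haematopoietic stem cells (HSCs) in that table, 163 of them from multilineage, 118 from platelet-erythroid-myeloid and 177 from platelet-restricted recipients. The member was found as the row named Vwf, and a cell counted as expressing it at 1 RPKM or more (reads per kilobase and per read total of the cell, with the scale set by the authors). The strain was C57BL/6, and each recipient received a single Vwf+ HSC and was followed for 16 weeks. Recipients were classed by the blood cells that the clone replenished, with 2 mice in each of 3 groups. The multilineage group (MUL) had 78 and 85 cells, the platelet-erythroid-myeloid group (PEM) 93 and 25, and the platelet-restricted group (PLT) 93 and 84. The sort took marrow cells of the phenotype LSK CD150+CD48-CD45.2+, in which CD45.2 identifies the donor, so every group shares the Vwf+ founder and the gate. Each mouse holds the progeny of 1 founder cell, and a difference between groups is a difference between 2 clones and 2 others. Ages, and any reporter allele used to choose the founder, are not given in the sources used here.

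Von Willebrand factor is a very large secreted glycoprotein that tethers platelets to injured vessel walls and carries clotting factor VIII. It is made by endothelial cells and megakaryocytes, in which disulphide-linked multimers are stored in Weibel-Palade bodies and alpha granules. In mouse marrow, Vwf also marks a subset of HSCs that is primed towards platelets. The gene lies on chromosome 6, 125546774 to 125686679 on the plus strand (mm10, GENCODE M21), and its full-length transcript has 52 exons, 8.834 kb of exon sequence and 2813 codons.

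Mapped reads per cell ran from 1.30 to 17.3 M, and the median of a mouse ran from 4.28 to 5.32 M. Both MUL mice shared 1 title prefix and each other mouse had its own, so prefix and group cannot be told apart. The recorded sex was male for both MUL mice, PEM 1 and PLT 1, and female for PEM 2 and PLT 2. Cell titles carry P1 or P2, called plate 1 and plate 2 here. Whether these are separate plates is not given in the titles. Within PEM mouse 2 they were sequenced unevenly. The labelled HSC identity was checked against markers of other cell types, which are given beside the results that they touch.

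Vwf was expressed in 144 of the HSCs and was below 1 RPKM in the other 314, a share of 31.4% (exact Clopper-Pearson 95% interval 27.2 to 35.9, counting error only), although every founder had been chosen as Vwf+. Among MUL recipients 9 of 78 cells (11.5%, interval 5.41 to 20.8) and 13 of 85 cells (15.3%, 8.40 to 24.7) expressed it. Among PEM recipients the counts were 51 of 93 (54.8%, 44.2 to 65.2) and 10 of 25 (40%, 21.1 to 61.3). In the PLT mice they were 24 of 93 (25.8%, 17.3 to 35.9) and 37 of 84 (44.0%, 33.2 to 55.3). Both MUL mice lay below the 4 other mice, and the PEM and PLT mice overlapped. From low to high the order was MUL 1, MUL 2, PLT 1, PEM 2, PLT 2 and PEM 1, and the intervals of every pair of neighbours in this order overlapped. Averaged by group, the share was 13.4% for MUL with an SD of 2.66, 47.4% for PEM with an SD of 10.5, and 34.9% for PLT with an SD of 12.9 (n = 2 mice each).

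**Figure D1:**
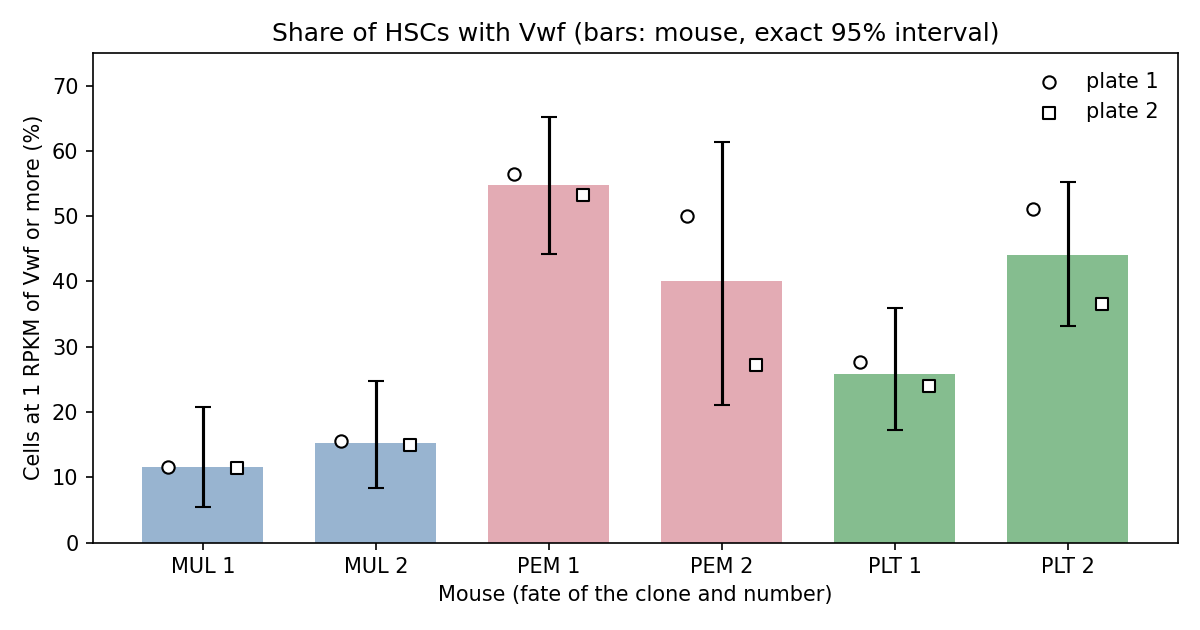
Percent of HSCs at 1 RPKM of Vwf or more in each of the 6 mice, with exact 95% intervals as error bars and the 2 plates of each mouse as open symbols. The bars of both MUL mice stand below those of the 4 PEM and PLT mice, and PLT 1 has the lowest bar of those 4.

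The share in MUL was lower than in the 4 other mice by 27.8 percentage points, a ratio of 3.07. Permuting the 6 mice exactly, 2 against 4 and two-sided, gave p = 0.133, the smallest p that this form of the test can give. Both MUL mice lay below the other 4 in this share for 378 of 8990 genes, 4.2% of those tested. A limma fit on the arcsine square root of the share over the same genes put PEM above MUL by 0.385 ± 0.111 (SE) and PLT above MUL by 0.255 ± 0.111, or by 0.159 without PLT 2. Neither passed Benjamini-Hochberg adjustment over all genes (limma, adjusted p = 0.818 and 1), and neither did PLT minus PEM, at -0.130 ± 0.111 (adjusted p = 0.651), which ran from -0.226 without PLT 2 to -0.0336 without PLT 1. The fit called 0 of the 8990 genes (0%) in each of these contrasts, and 402, 309 and 1021 genes had an unadjusted p under 0.05. These p-values rest on the spread between 2 mice of a group, and group and clone cannot be told apart here, since each mouse holds 1 clone.

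The level of Vwf in the cells that expressed it did not follow the same order. Among expressing cells the median was 16.1 RPKM in MUL 1 and 58.3 in MUL 2, so the lowest and the highest of the 6 medians were both in the MUL group. PEM mice had medians of 37.9 and 21.0 RPKM and PLT mice of 53.6 and 22.3. The quartiles of the expressing cells ran from 15.1 to 28.5 RPKM in MUL 1 and from 31.7 to 73.2 in MUL 2. They ran from 22.5 to 60.0 RPKM in PEM 1, 11.2 to 74.5 in PEM 2, 30.0 to 98.5 in PLT 1 and 13.1 to 35.1 in PLT 2. The geometric mean over expressing cells averaged 30.5 RPKM in MUL and 30.8 in the 4 other mice (ratio 1.01, exact two-sided permutation test, p = 0.933). With 9 and 13 expressing cells in the MUL mice, this comparison has little precision, and the groups overlapped in full.

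**Figure D2:**
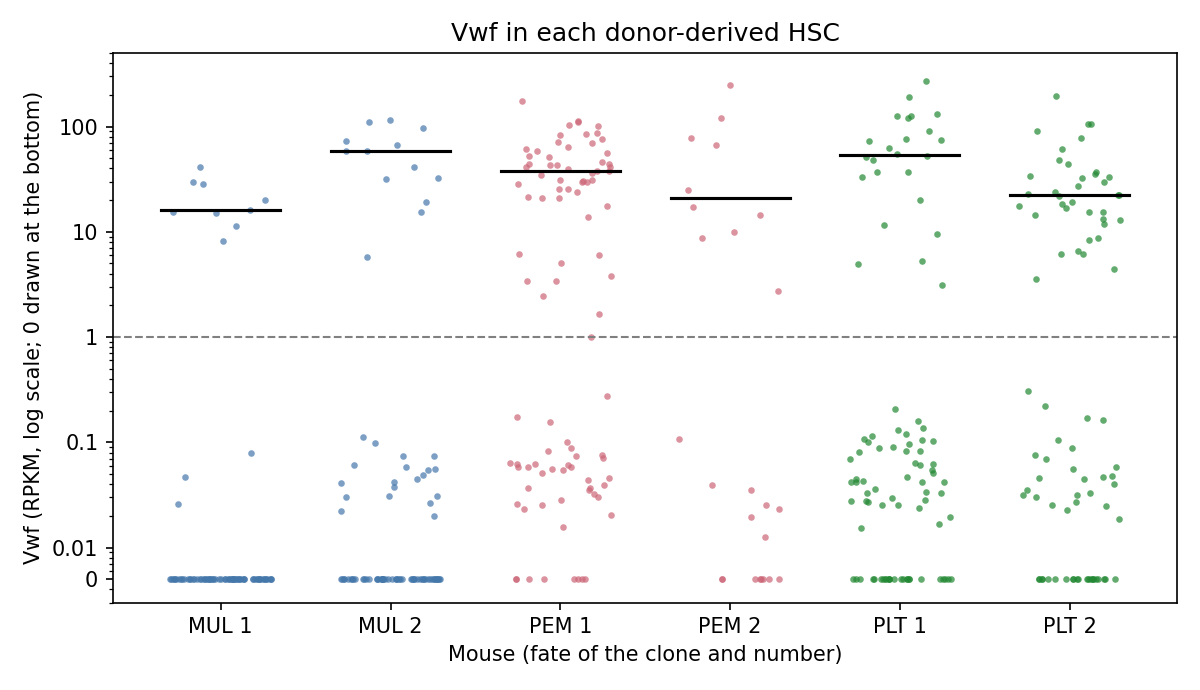
Vwf RPKM in each HSC of the 6 mice on a log axis, with cells listed at 0 drawn along the bottom, a dashed line at 1 RPKM and a black bar at the median of the cells above that line. The mice differ in how many points lie above the line, 9 in MUL 1 against 51 in PEM 1, while the medians run from 16.1 to 58.3 RPKM without an order by group.

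A small number of cells carried much of the message of a mouse. The highest value was 271 RPKM in PLT 1, followed by 246 in PEM 2 and 197 in PLT 2, and the highest value in MUL 1 was 41.2. The 3 highest cells of PEM 2 held 75.4% of the Vwf RPKM summed over its 25 cells, and those of MUL 1 held 53.5%. In PEM 1, with the most expressing cells, the same 3 places held 17.3%. Values of 100 RPKM or more were met in 0 and 2 cells of the MUL mice, 5 and 2 of the PEM mice, and 6 and 3 of the PLT mice.

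Averaged over all cells of a mouse, expressing or not, Vwf had 2.39 and 8.53 RPKM in MUL, 24.6 and 23.5 in PEM, and 18.4 and 15.1 in PLT. The MUL mice were again below the other 4, as they were for 686 of 11337 genes, 6.05% of those tested. On the log2(mean RPKM + 1) scale PEM stood above MUL by 2.14 ± 0.69 (SE) and PLT above MUL by 1.64 ± 0.69, and PLT minus PEM came to -0.50 ± 0.69. None passed adjustment (limma, adjusted p = 0.868, 0.592 and 0.863). The median difference over all genes in these contrasts was -0.04, -0.18 and -0.13. The limma fit called 0 of 11337 genes (0%) in PEM minus MUL and in PLT minus PEM, where 634 and 949 genes had an unadjusted p under 0.05. In PLT minus MUL it called 1 gene (0.00882%), which was not Vwf.

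The measured values of Vwf were close to yes-or-no over the cells. The part of message missed in making the libraries was not tested, so a low value need not mean that a cell lacked it. Whole reads could be recovered from the steps of the RPKM values, and all 133 Vwf values of up to 50 reads came out within 0.02 of a whole read. The 144 expressing cells held 29 to 28408 reads, with a median of 1098.5. A further 132 cells were above 0 but below 1 RPKM, and 61 of them rested on 1 read, 117 on at most 3 and 130 on at most 10. The remaining 182 cells were listed at 0. Around the threshold the highest values below it were 0.994, 0.306 and 0.277 RPKM, and the lowest above it were 1.67, 2.46 and 2.75. A single cell therefore lay between 0.306 and 1.67 RPKM, and moving the threshold within that range would move at most that cell.

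**Figure D3:**
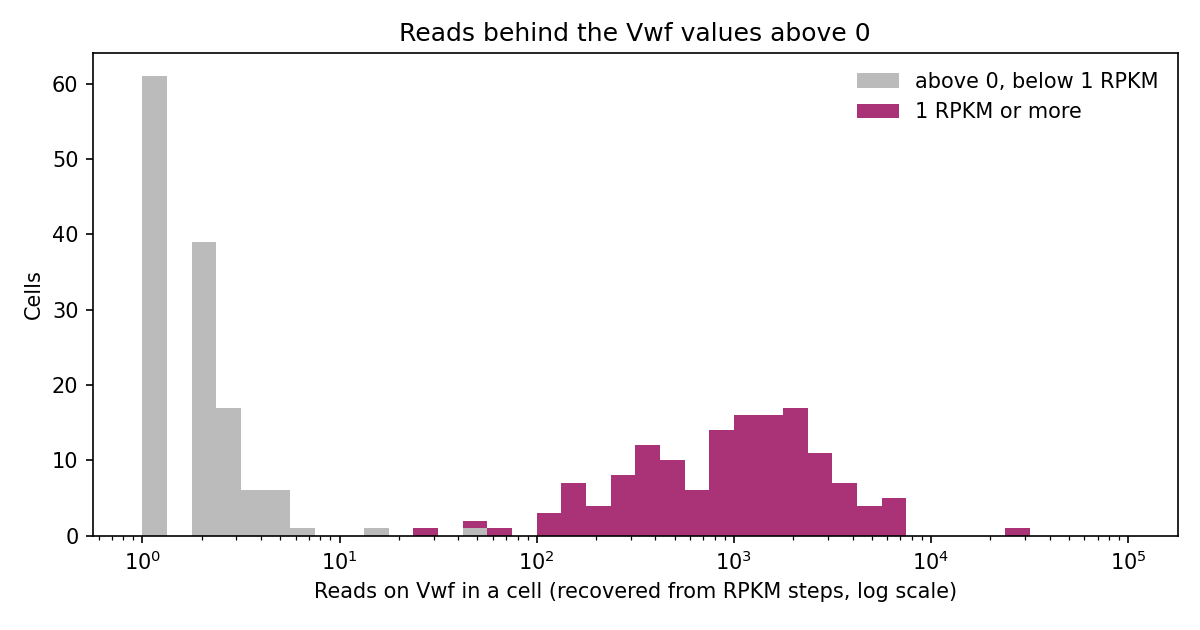
Number of cells by the reads recovered for Vwf (log axis), for the 132 cells above 0 and below 1 RPKM in grey and the 144 cells at 1 RPKM or more in purple. The grey cells pile up at 1 to 3 reads and the purple cells lie mostly above 100 reads, with few cells between.

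These traces were spread unevenly, and they decide what a share above 0 would say. Among the cells below 1 RPKM, a trace was present in 4.35% (MUL 1), 26.4% (MUL 2), 81.0% (PEM 1), 46.7% (PEM 2), 63.8% (PLT 1) and 53.2% (PLT 2). Mmrn1, the gene of the platelet granule protein multimerin 1, gave a comparison. It was expressed in 28 and 36 cells of the PLT mice, and traces were present in 76.9% and 83.3% of their other cells. In the MUL and PEM mice Mmrn1 was expressed in 0 cells, and a trace was present in 1 cell, of PEM 2. Traces of both genes were thus frequent in mice that also held many expressing cells, and the source of the traces was not tested.

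Cells titled P1 and P2, called plates here, gave much the same share of expressing cells in most mice. On plates 1 and 2 it was 11.6% and 11.4% in MUL 1, 15.6% and 15% in MUL 2, 56.5% and 53.2% in PEM 1, and 27.7% and 23.9% in PLT 1. The plates lay further apart in PLT 2, at 51.2% and 36.6%, and in PEM 2, at 50% and 27.3%, which are 7 of 14 and 3 of 11 cells. The plates of PEM 2 had median depths of 3.2 and 12.2 M reads, and the part of depth in that gap was not tested. On either plate both MUL mice lay below the 4 other mice.

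Cells that expressed Vwf also had more genes detected. The authors' count of detected genes had a higher median in expressing cells than in the others in 6 of 6 mice, from 2647 against 2541.5 in MUL 2 to 3536 against 2554 in PEM 2. Across the cells of a mouse, its correlation with Vwf, as log2(RPKM + 1), had a mean r of 0.29 and was positive in all 6 mice. Mapped reads on a log2 scale went the other way, with a mean r of -0.15 and a negative value in all 6, and the mitochondrial share of reads had a mean r of -0.12 with 2 of 6 positive. All correlations here are descriptions over cells that share a mouse and a clone, and no p is given for them.

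Correlations were taken for the 6584 genes at 1 RPKM or more in at least 10% of cells and in at least 1 cell of every mouse. Over these genes the mean within-mouse correlation with Vwf had a median of 0.05 and ran from -0.20 to 0.32. Between -0.07 and 0.18 lay 95% of genes. It was above 0 for 78.9% of genes, and with detected genes held constant the median was 0.00. A correlation positive in all 6 mice was met for 510 genes (7.75%), and one negative in all 6 for 47 (0.714%). Most of these correlations are weak, and in sparse single-cell values a weak one is no finding.

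Sdpr (now Cavin2), which encodes a caveola-associated phosphatidylserine-binding protein found in platelets, was the gene most correlated with Vwf. Its r was 0.58 in MUL 1, 0.15 in MUL 2, 0.21 in PEM 1, 0.50 in PEM 2, 0.18 in PLT 1 and 0.21 in PLT 2, with a mean of 0.32. With detected genes held constant the mean r of Sdpr was 0.23 and still the highest, and by rank correlation it was 0.23 and the 27th highest. Without MUL 1 it was 0.25 and the 7th highest. Sdpr was at 1 RPKM or more in 6 of 9 Vwf-expressing cells of MUL 1 against 4 of 69 others, and in 3 of 13 against 6 of 72 in MUL 2. The counts were 23 of 51 against 8 of 42 and 7 of 10 against 3 of 15 in the PEM mice, and 14 of 24 against 17 of 69 and 25 of 37 against 23 of 47 in the PLT mice. The share was higher in the Vwf-expressing cells in 6 of 6 mice, with means of 55.1% against 21.1%. The gene was picked for a positive r in all 6 mice, so this count adds no further support. Sdpr, like Vwf, was lower in both MUL mice than in the 4 others, though those 4 came in another order, with mean levels of 19.7 and 13.1 RPKM in MUL, 45.4 and 78.5 in PEM, and 72.9 and 83.8 in PLT. Its difference between the 4 other mice and MUL did not pass adjustment (higher by 2.02 ± 0.41 SE on the log2 scale, limma, adjusted p = 0.533).

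Next to Sdpr stood genes with general rather than platelet functions. They were Tfam, which packages mitochondrial DNA (mean r 0.28), the galactokinase gene Galk1 (0.26), and Wdr5, a subunit of histone methyltransferase complexes (0.26). Nelfa, of the negative elongation factor (0.26), and Psmg3, a proteasome assembly chaperone (0.26), followed. The mitochondrial glycerol-3-phosphate dehydrogenase gene Gpd2 (0.25), Tbc1d2b (0.25) and the mitochondrial chaperone gene Hspa9 (0.24) completed the highest group, with 1 further RIKEN gene left without a description. At the other end stood Cntn2, a neural adhesion gene (mean r -0.20), Slc38a6 (-0.16), Gm2a, the GM2 ganglioside activator (-0.16), Lrrn4cl (-0.14), Kcnn1 (-0.14) and Lgr5 (-0.13). Cdkn2c, an inhibitor of cyclin-dependent kinases, and Trf, the transferrin gene, were also at -0.13. Several genes of this end had low levels on both sides. In MUL 1, Cntn2 averaged 0.50 RPKM in Vwf-expressing cells against 0.79 in the others, and Kcnn1 1.16 against 1.43. Slc38a6 averaged 2.97 against 4.37 there and Lrrn4cl 3.13 against 4.11. The part of background reads in such values was not tested. The genes of both ends were picked for 1 sign in the 6 mice, so that sign supports nothing further.

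**Figure D4:**
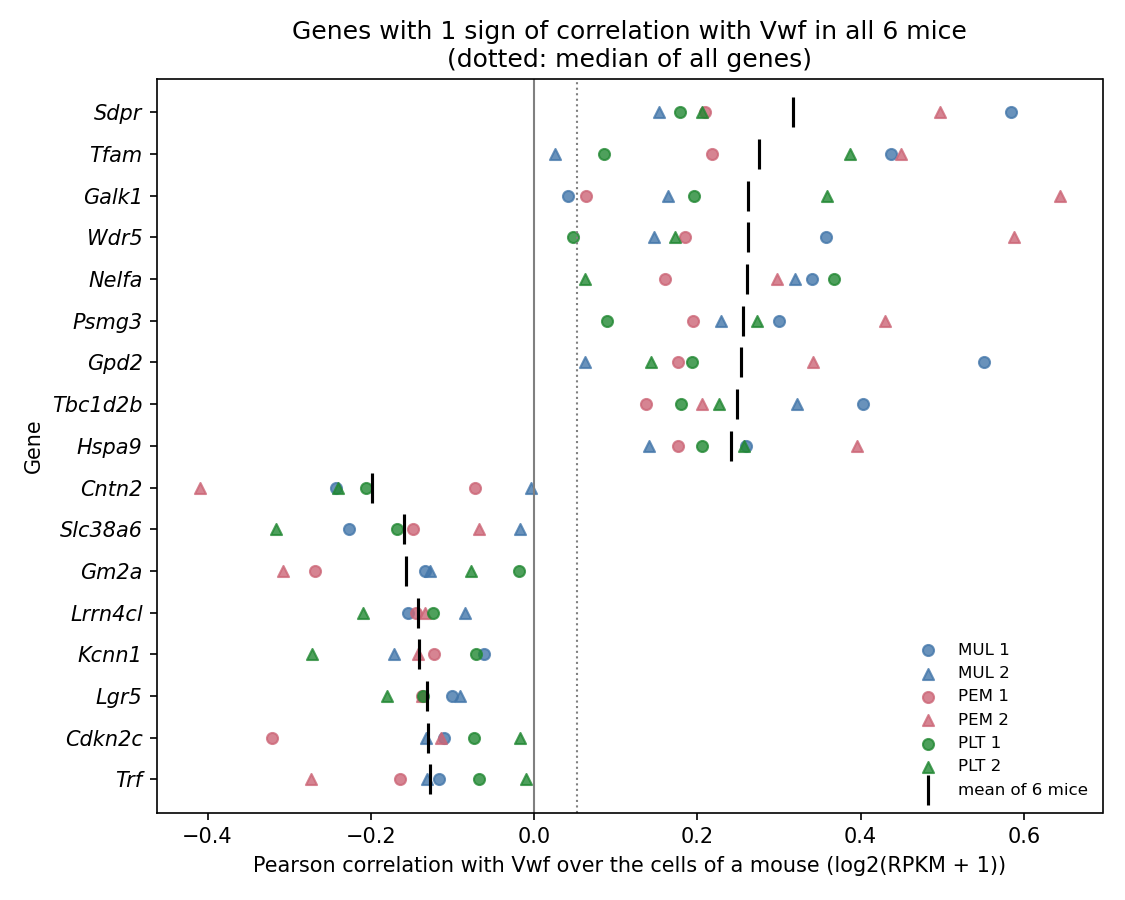
Pearson correlation with Vwf over the cells of each mouse for the 17 named genes outside the predicted and RIKEN sets, with the mean of the 6 mice as a black tick and the median of all genes as a dotted line. Values spread widely within a gene, as for Sdpr from 0.15 in MUL 2 to 0.58 in MUL 1.

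The receptors that bind von Willebrand factor on platelets were sparse in these HSCs. The list held Gp1ba, Gp1bb, Gp5 and Gp9, whose products form the glycoprotein Ib-IX-V complex, and Itga2b and Itgb3, which form integrin alpha-IIb beta-3. Of these 6, 2 were frequent enough for a correlation, both above 0, as were 78.9% of all genes. The 2 had a median of 0.13, against 0.05 over all genes. Itga2b was at 1 RPKM or more in 5 of 9 Vwf-expressing cells of MUL 1 against 8 of 69 others, and in 0 of 13 against 9 of 72 in MUL 2. It was in 17 of 51 against 8 of 42 and 7 of 10 against 2 of 15 in the PEM mice, and in 1 of 24 against 1 of 69 and 7 of 37 against 4 of 47 in the PLT mice. Gp1bb was in 5 of 10 Vwf-expressing cells of PEM 2 and 0 of its 15 others, but in 0 of 13 and 1 of 72 in MUL 2. Gp1ba, Gp1bb, Gp9, Itga2b and Itgb3 were each in a larger share of Vwf-expressing cells in 5 mice and a smaller share in 1. For Gp5 the share was larger in 4 mice and smaller in 1. The mouse that went the other way was not the same for every gene. Vwf-expressing cells also had more genes detected, and how many of all genes went likewise was not counted. Gp9 was in 0 of 9 Vwf-expressing cells against 5 of 69 others in MUL 1, and in 4 of 24 against 2 of 69 in PLT 1. In PEM 1, with the most Vwf-expressing cells, Gp5 was in 12 of 51 against 0 of 42 and Gp9 in 12 of 51 against 6 of 42. Itgb3 was in 0 of 9 against 7 of 69 in MUL 1 and in 3 of 24 against 5 of 69 in PLT 1. In the mouse means 0 of 6 receptor genes passed adjustment in any contrast, and their median log2 difference was 0.94 between PEM and MUL and -0.33 between PLT and MUL.

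Of 12 listed genes that process, cleave, carry or clear von Willebrand factor, 5 were frequent enough for a correlation. All 5 were above 0, as were 78.9% of all genes, with a median of 0.14 against 0.05 over all genes. They were the propeptide protease gene Furin, the folding enzyme genes Pdia3 and P4hb, and Lman1 and Mcfd2, which encode a cargo receptor of factor VIII. With detected genes held constant, the mean r of Lman1 was -0.014. In the mouse means 0 of the 5 tested passed in any contrast. P4hb, a protein disulphide isomerase, was positive in all 6 mice (mean r 0.20), as were 7.75% of all genes. On average 65.4% of Vwf-expressing cells had P4hb at 1 RPKM or more, against 43.2% of the others. Adamts13, the protease that cleaves von Willebrand factor, and F8, its partner factor VIII, reached 1 RPKM in 0% of Vwf-expressing cells and, on average, 0.463% of the others. The clearance receptors Stab2 and Asgr1 were at 0% in both.

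Among genes of granule storage and release, 11 of the 12 with a value correlated above 0 (91.7%, against 78.9% of all genes). Mmrn1 had no value, since a value needed a cell at 1 RPKM or more in every mouse. The median of the 12 was 0.10, against 0.05 over all genes, and 0 of 16 tested passed in any contrast. Rab27a, a GTPase of secretory granules, was the 1 of the 12 with a positive value in all 6 mice (mean r 0.10). This is near the 7.75% of all genes. Pf4, platelet factor 4, was at 1 RPKM or more in 9 of 10 Vwf-expressing cells of PEM 2 against 5 of 15 others and in 6 of 9 against 13 of 69 in MUL 1. In PLT 1 it was in 4 of 24 against 12 of 69, and in PLT 2 in 29 of 37 against 34 of 47. Its r was 0.67 in PEM 2 and -0.10 in PLT 1. Mmrn1, expressed in the PLT mice alone, was in 6 of 24 Vwf-expressing cells against 22 of 69 others in PLT 1 and in 18 of 37 against 18 of 47 in PLT 2. Selp, the P-selectin gene stored in the same granules, was in a mean of 38.5% against 26.6% and higher in 5 of 6 mice.

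**Figure D5:**
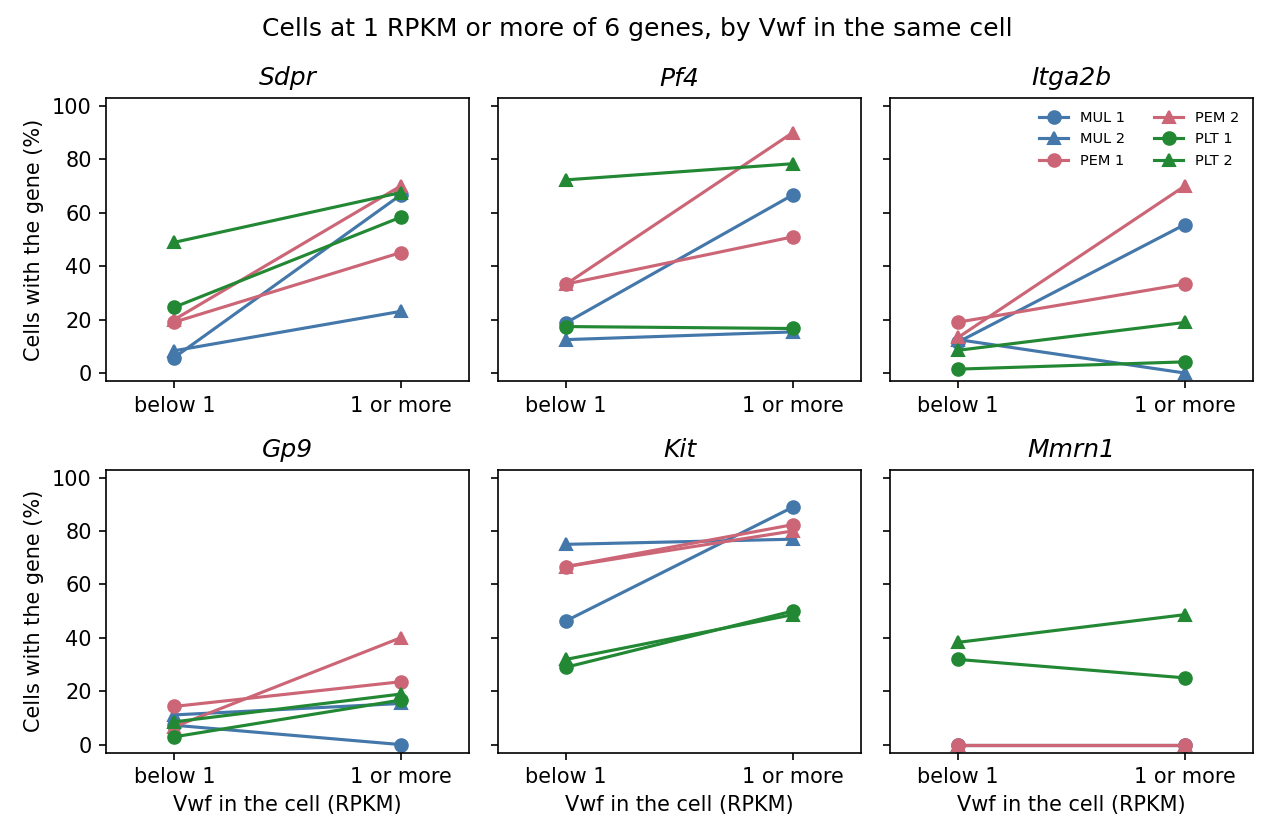
Percent of cells at 1 RPKM or more of 6 genes among cells below 1 RPKM of Vwf and among cells at 1 RPKM or more, with 1 line per mouse. The lines of Sdpr go up in all 6 mice, those of Pf4 and Itga2b are steep in MUL 1 and PEM 2 and change little or go down in MUL 2 and PLT 1, and Mmrn1 is at 0 in the MUL and PEM mice.

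The wider list of megakaryocyte-platelet genes repeats the receptor genes and several granule genes. Of its genes, 20 of 20 with a correlation value were above 0, against 78.9% of all genes. Mmrn1, at 1 RPKM or more in 14.0% of cells, had no value because it was expressed in the PLT mice alone. The median of the 20 was 0.13, against 0.05 over all genes. Of the 20, 2 were positive in every mouse, Sdpr and Tbxas1, near the share of all genes (7.75%). Tbxas1, thromboxane synthase, went 1 way within mice and the other way between groups. Its mean within-mouse r was 0.21. Its mean level was 158 and 327 RPKM for MUL, 167 and 85.2 for PEM, and 137 and 72.0 for PLT, lower on average in the groups with more Vwf-expressing cells (limma, adjusted p = 0.791). In the mouse means 0 of 30 tested genes of this list passed in any contrast, with 21 higher and 9 lower in PEM minus MUL and 16 higher and 14 lower in PLT minus MUL.

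Vwf-expressing HSCs more often held several markers of the megakaryocyte lineage. At least 3 of 10 markers were at 1 RPKM or more in 29 of the 144 Vwf-expressing cells and 7 of the 314 others. By mouse these were 2 of 9 against 1 of 69 and 0 of 13 against 3 of 72 in MUL, 12 of 51 against 0 of 42 and 5 of 10 against 1 of 15 in PEM, and 2 of 24 against 0 of 69 and 8 of 37 against 2 of 47 in PLT. The share was higher in the Vwf-expressing cells in 5 mice and lower in MUL 2. The markers seen were mainly Pf4, in 76 of the 144 cells and 87 of the 314 others, and Itga2b, in 37 and 32. P2rx1 was in 32 and 24 cells and Gp9 in 29 and 26, with the mice pooled. Clec1b was in 2 of the 144 and 5 of the 314 cells. Gp6, a collagen receptor of platelets, was in 0 of the 144 and 0 of the 314 cells, and Tubb1, the tubulin of platelets, in 2 of the 144 and 0 of the 314. The summed level of the 10 markers, pooled over mice, had a median of 17.8 RPKM in Vwf-expressing cells (highest 13903) and 0.784 in the others (highest 7689). By mouse the median was higher in Vwf-expressing cells of the MUL and PEM mice, as in PEM 1 with 99.8 against 1.98 RPKM. It was lower in those of the PLT mice, with 0.273 against 0.372 RPKM in PLT 1 and 11.4 against 22.3 in PLT 2. The part of the higher number of detected genes in these shares was not tested.

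Markers of endothelial cells, the other main source of von Willebrand factor, were checked in the same way. Of the 13 listed, 5 (Cdh5, Flt1, Stab2, Lyve1 and Sox17) were at 1 RPKM or more in 0 of the 144 and 0 of the 314 cells. A count of 0 of 144 allows a share of up to 2.08% for a gene. The other 8 were present. Pecam1 was in 19 of the 144 cells and 38 of the 314 others, Sox18 in 5 and 9, and Fabp4 in 2 and 3. Kdr was in 3 and 0 cells, Plvap in 1 and 0, and Cldn5 in 1 and 1. At least 3 of 13 endothelial markers were met in 5 of the 144 cells and 7 of the 314 others, and the most frequent were Egfl7 (51 and 86 cells) and Tie1 (30 and 69 cells), which HSCs also express. At least 3 neutrophil markers were met in 4 and 21 cells, erythroid markers in 6 and 14, macrophage and monocyte markers in 6 and 14, B cell markers in 0 and 1, and T and NK cell markers in 0 and 0.

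Transcription factors of megakaryocytes, endothelium and HSCs correlated above 0 for 14 of 18, or 77.8%, close to the 78.9% of all genes (median 0.07 against 0.05). Lmo2, a bridging subunit of the haematopoietic factor complex, had an r of 0.12 to 0.21 in the 6 mice, with a mean of 0.18. Gfi1b, a repressor needed for platelet formation, and Meis1, a homeobox factor of HSCs and megakaryocytes, were also positive in all 6 (mean r 0.12 and 0.06). Of all genes, 7.75% were positive in all 6. With detected genes held constant the mean r of Meis1 was -0.015. In the mouse means 0 of 22 passed in any contrast.

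Of 22 genes of HSC identity with a value, 16 correlated above 0, or 72.7%, near the 78.9% of all genes (median 0.06 against 0.05). Among them were Tek, the angiopoietin receptor (mean r 0.20, 5 of 6 mice), and Kit (0.11, 5 of 6 mice). Kit reached 1 RPKM in 71.1% of Vwf-expressing cells on average against 52.6% of the others, higher in 6 of 6 mice. Ly6a, which encodes the sorted antigen Sca-1, had a mean r of -0.14, with 1 of 6 mice above 0. Procr, the endothelial protein C receptor gene, had a mean r of 0.12, with 5 of 6 mice above 0. The share of cells with Procr at 1 RPKM or more was higher in Vwf-expressing cells in 3 of 6 mice. Among the 26 tested in the mouse means, 0 passed in the other contrasts and 1 passed in PLT minus MUL, Ctla2b, which was lower in PLT (-4.29 ± 0.38 SE on the log2 scale, limma, adjusted p = 0.0289). Lymphoid-priming genes were rare, and 3 of 18 had a value, 1 of them above 0 (median -0.04), while 0 of 8 tested passed. Cd34 was in a mean of 13.5% of Vwf-expressing cells against 21.4% of the others, lower in 4 of 6 mice.

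Genes next to Vwf on chromosome 6 were rarely at 1 RPKM or went with it in some mice and against it in others. Ano2, a calcium-activated chloride channel gene that starts 3.74 kb past the end of Vwf on the same strand, was at 1 RPKM or more in 0 cells of any mouse. On the other side the nearest protein-coding gene was Cd9, a tetraspanin of platelets and HSCs, 51.98 kb away on the opposite strand. Cd9 was in 306 cells, and its r with Vwf was positive in 4 mice and negative in MUL 2 and PEM 1, from -0.11 to 0.21. Plekhg6 and Tnfrsf1a, further on, were in 3 and 61 cells.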

How the data were processed

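Per the labels' protocols, single index-sorted HSCs were made into libraries with the SMARTer Ultra Low RNA kit, here 6 mice. The deposited expression values are RPKM made by the authors. TopHat, featureCounts and mm10 were used per the submitters' processing notes. Their versions are not given in the sources used here. Per the file headers, the deposited cell table holds each cell's mapped read count, its count of detected genes and the mitochondrial percent of its reads. Other deposited columns of that table (status, mouse, recorded sex) are labels. The recorded sex may be that of donor or recipient.

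Cells are not replicates. RPKM was averaged over the cells of a mouse, and log2(mean + 1) was fitted with limma 3.58.1 in R 4.3.3 (1 mean per group, 6 mice, trended eBayes, Benjamini-Hochberg, threshold 0.05) for the 11337 genes that reached a mean of 1 RPKM in 2 or more mice. Shares were fitted likewise after an arcsine square root. A fold on the log2(mean + 1) scale understates the change of low genes. Single values had exact permutation tests. The limma step was tested on simulated data. Correlations are Pearson's r of log2(RPKM + 1) within a mouse, averaged over 6 mice. Whole reads were recovered for Vwf from the RPKM steps (94.6% of 984647 low values of 9420 genes were within 0.02 of a whole read), and used as descriptions. No count model was fitted. No filter on cells or doublet caller was used.

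Named genes were the 10 highest and 10 lowest in mean correlation among those of 1 sign in all 6 mice. From each of 7 lists, members were named by the smallest p, by the highest and lowest correlation, or for being at 0 throughout, with the nearest annotated genes and Cd9. Other list members with counts by cell (among them Selp, Gp1bb, P4hb and Procr) were chosen after their values were seen. Gene, lists and tests were chosen with earlier results of these data known. Positions are GENCODE M21. Some list members are counted but not reported here by name.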

Additional observations from a re-analysis of the deposited data

How the results depend on the processing

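Vwf kept its direction and stayed short of the threshold in all 132 combinations of a planned or added alternative with a contrast (limma, adjusted p = 0.126 to 1). The log2 difference in mean level ran from 1.17 to 2.89 for PEM minus MUL, 0.82 to 2.39 for PLT minus MUL, -0.90 to -0.23 for PLT minus PEM and 0.99 to 2.64 for the mean of PEM and PLT minus MUL, where 1.14 came without MUL mouse 1 and 2.64 without MUL mouse 2. Leaving out 1 mouse at a time, the arcsine difference in share ran from 0.311 to 0.460 for PEM minus MUL, 0.159 to 0.352 for PLT minus MUL, -0.226 to -0.0336 for PLT minus PEM and 0.272 to 0.368 for the mean of PEM and PLT minus MUL. Using only the mice recorded as male, added after the data were seen, gave 1.97 for that last contrast. Of the 20 genes named for their correlation, 10 kept 1 sign in every mouse by Spearman's rank correlation and 12 with detected genes held constant. With genes in at least 20% of cells, 13 of the 20 were left and all 13 kept it. The mean correlation reversed for Lman1 (-0.014) and Meis1 (-0.015) with detected genes held constant and for Srgn (-0.0601) by rank. No paired analysis was possible because no mouse identifier in the labels is shared between groups. With 2 mice a group and 25 cells in PEM mouse 2, precision was limited, and the read total behind the RPKM is not given in the sources used here.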

Other observations

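Detected genes varied among the cells with the most Vwf, from 1527 to 3447 in the 10 cells of highest RPKM. The cell with 28408 Vwf reads, from PEM 2, had 1944 detected genes, and the cell with the highest RPKM, from PLT 1, had 7176 reads and 2232 detected genes. Median detected genes were 3536 in the expressing cells of PEM 2 and 2134 in those of PLT 1, so the first cell lay below its mouse's median and the second above.

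Stxbp5, Ctnnal1, Angpt1 and Lyl1 were chosen after their values were seen. They were at 1 RPKM or more in a larger share of Vwf-expressing cells than of other cells in 6 of 6 mice. Vwf-expressing cells had more genes detected, and how many of all genes were likewise higher in 6 of 6 mice was not counted. The mean shares were 18.9% against 8.26% for Stxbp5, a syntaxin-binding protein that acts on granule release, and 80.2% against 64.6% for Angpt1, the ligand of the receptor encoded by Tek. They were 22.2% against 12.8% for Ctnnal1 and 48.2% against 33.9% for Lyl1.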
